A study of Homo sapiens with 3 samples.

Results

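The genes examined here encode the subunits of AP-1: FOS, FOSB, FOSL1, FOSL2, JUN, JUNB, JUND, ATF3, BATF and BATF3. They were taken by name, as 10 of the 20162 protein-coding genes of the annotation. Chromatin immunoprecipitation followed by sequencing (ChIP-seq) had been performed in PANC-1 cells, a line established from a human pancreatic ductal carcinoma, which the labels give as wild type and for which they list no treatment. The 3 libraries were input chromatin, an antibody against PHF13 and an antibody against EZH2, with 1 library each, all from cells fixed with the protein crosslinker EGS and with formaldehyde. The PHF13 antibody was a newly made rabbit polyclonal, and the methods describe crosslinking of cells from a single plate. A gene was counted for an antibody when a deposited peak, a stretch where ChIP fragments exceeded the local background, lay within 5 kb of any of its transcription start sites (TSS) or overlapped the gene body. All peaks within 100 kb of the gene body were then collected. The lists hold no expression values, so the labelled cell line could not be checked against marker genes. Without replicate libraries there was no spread to compare a difference with and no test was possible, and intervals cover counting error only.

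AP-1 is a family of dimeric basic leucine zipper factors. FOS and JUN proteins pair with each other and bind the palindromic site TGAGTCA, which reads TGACTCA on the other strand, whereas ATF-type dimers prefer the cAMP response element (CRE) TGACGTCA. Many of the subunit genes are immediate early genes that growth factors, stress and TGFβ switch on within minutes, and several carry sites for their own family. PHF13 is a PHD-finger protein that reads methylated histone H3 at active and poised promoters. EZH2 is the methyltransferase of Polycomb repressive complex 2 (PRC2), whose broad domains usually cover CpG-rich promoters of silent developmental genes.

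The members fell into 3 groups by the peaks at them. PHF13 peaks were found at FOSB, FOSL1, JUNB, JUND and BATF, and EZH2 peaks were found at ATF3 and BATF3. Over all protein-coding genes the shares were 31.2% and 30%. FOS, FOSL2 and JUN had neither, and no member had both, against 51.4% and 12.6% of protein-coding genes. All 10 genes had a PHF13 peak somewhere within 100 kb, against 75.6% of protein-coding genes. Several of the distal peaks held an AP-1 site, as did 11.2% of all PHF13 peaks.

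The sequences at these distal peaks show which part of the DNA carries the family's own site. Of the 31 PHF13 peaks within 100 kb, 7 had TGAGTCA or TGACTCA in the 200 bp centred on the summit, the position of highest coverage. They are printed below with the site and 30 bases on either side, from the GRCh37 (hg19) genome, with the AP-1 site in capitals. Where a peak held more than 1 site, the site closest to the summit is shown.
FOSB, 11880 bp upstream (chr19:45959122-45959188, plus strand): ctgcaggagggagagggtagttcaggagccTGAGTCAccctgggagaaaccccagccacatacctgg
FOSL1, 15179 bp upstream (chr11:65683356-65683422, plus strand): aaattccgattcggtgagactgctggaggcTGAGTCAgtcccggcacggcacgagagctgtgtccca
JUN, 56396 bp downstream (chr1:59193215-59193281, plus strand): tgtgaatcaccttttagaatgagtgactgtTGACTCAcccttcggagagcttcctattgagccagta
JUN, 81019 bp downstream (chr1:59168538-59168604, plus strand): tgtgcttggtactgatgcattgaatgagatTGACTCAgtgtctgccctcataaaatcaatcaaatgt
JUND, 5861 bp downstream (chr19:18385790-18385856, plus strand): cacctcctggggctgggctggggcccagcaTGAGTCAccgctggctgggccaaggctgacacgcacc
JUND, 92857 bp upstream (chr19:18485384-18485450, plus strand): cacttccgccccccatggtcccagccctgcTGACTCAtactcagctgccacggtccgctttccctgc
BATF3, 21703 bp upstream (chr1:212895037-212895103, plus strand): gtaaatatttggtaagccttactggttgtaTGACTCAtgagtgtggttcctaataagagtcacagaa

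The centres of these sites lay between 14 and 78 bp from the summit. The sites of FOSB, FOSL1 and the JUND peak downstream read TGAGTCA on the plus strand, and the other sites read TGACTCA. The surrounding bases differed from one to the next, and all of these peaks were single-copy. That is, the median 24-base word in the 100 bp centred on the summit occurred once in the genome.

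Matches to AP-1 and related elements in the promoters of the members themselves, from 250 bp before to 50 bp after the canonical TSS, are printed below in the direction of transcription. Capitals mark TGACATCA, a CRE variant known from the JUN promoter and sought also as its reverse complement, in JUN, the CRE in JUND, and the AP-1 site in FOSL1 and FOSL2.
JUN promoter (chr1:59249759-59249806, minus strand): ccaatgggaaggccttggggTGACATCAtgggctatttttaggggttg
JUND promoter (chr19:18392605-18392652, minus strand): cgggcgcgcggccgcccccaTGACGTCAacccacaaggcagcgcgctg
FOSL1 promoter (chr11:65667844-65667870, minus strand): acggcgcgggTGAGTCAgaacccagca
FOSL2 promoter (chr2:28615719-28615745, plus strand): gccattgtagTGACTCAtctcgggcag

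None of these 4 promoter matches lay inside a peak of either list. An AP-1 site was present in 2 of 10 member promoters, against 3.57% of all protein-coding promoters searched the same way on both strands. The site of FOSL1 began 1 bp before its TSS and the site of FOSL2 began 4 bp after its TSS. A CRE was present in 1 of 10 (JUND, at -200 bp) against 2.68%, and TGACATCA in 1 of 10 (JUN, at -67 bp) against 2.12%. The palindromic SMAD element GTCTAGAC was found in 0 of 10 against 0.198%, and the CArG box, the element bound by serum response factor, in 0 of 10 against 1.2%. A match describes letters and not binding, and a missing match concerns only this window.

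For the EZH2 peaks, CpG dinucleotides are the relevant feature. The 100 bp around the summit at each of the 2 EZH2-marked members is shown with every CpG in capitals.
ATF3 EZH2 summit (chr1:212780627-212780726, plus strand): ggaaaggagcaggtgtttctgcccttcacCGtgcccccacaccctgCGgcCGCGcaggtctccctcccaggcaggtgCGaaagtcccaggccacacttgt
BATF3 EZH2 summit (chr1:212873977-212874076, plus strand): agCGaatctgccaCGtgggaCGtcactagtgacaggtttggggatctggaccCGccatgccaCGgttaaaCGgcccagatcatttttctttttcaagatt

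The ATF3 window held 5 CpGs and the BATF3 window held 6. Over 500 bp at the summit, the ratio of observed to expected CpGs was 0.552 at ATF3 and 0.757 at BATF3, and the GC content was 60.2% and 62.8%. The 1659 EZH2 peaks of the list that were wider than 1 kb had medians of 0.824 and 70.2%, so that both members lay below the typical wide EZH2 peak in both measures.

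**Figure D1:**
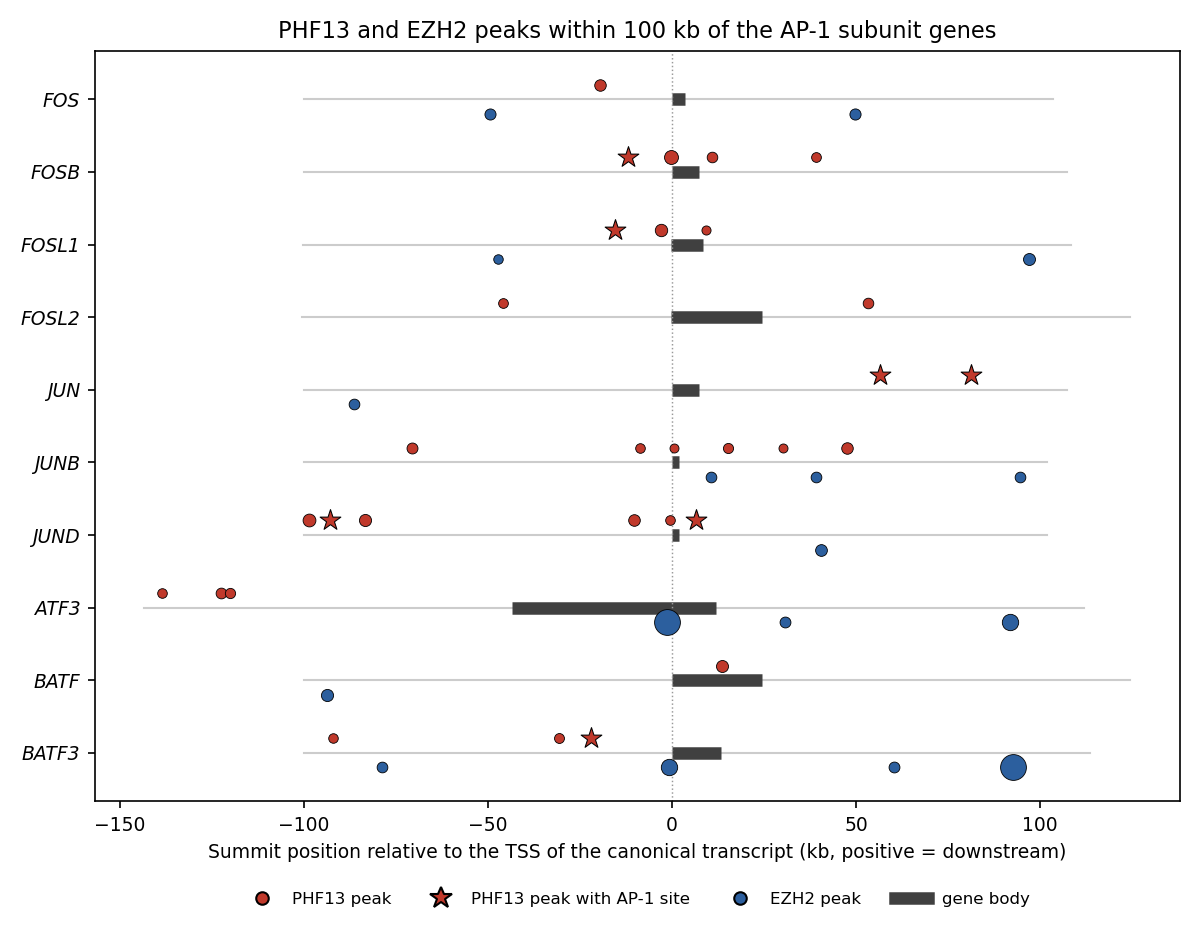
Peaks within 100 kb of each AP-1 subunit gene, by the position of the summit relative to the canonical TSS (kb, positive is downstream in the direction of transcription). PHF13 peaks are red and drawn above the line, EZH2 peaks are blue and drawn below it, stars mark the 7 PHF13 peaks with an AP-1 site, grey bars are gene bodies, and circle size grows with the deposited −log10 q. The 2 largest circles, seen from both genes, are the wide EZH2 peaks of ATF3 and BATF3.

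The first question was which subunit genes carried PHF13. Of the 10 members, 5 (50%, 95% Wilson interval 23.7 to 76.3%) had a PHF13 peak by the rule, against 31.2% of all protein-coding genes. The interval includes the background, so the share of the members was not distinguishable from it. Over all 64440 annotated genes, non-coding ones included, the background was 18.8%, which lies below the interval. The bodies of the members are short, with a median of 7864.5 bp against 27220 bp over protein-coding genes, and their promoters are richer in CpG (median ratio 0.891 against 0.775). Among genes whose promoter had a CpG ratio of at least 0.6, 4 of 8 members and 35.8% of genes were counted. Among the others, where BATF (0.286) and JUN (0.561) belong, 1 of 2 members and 21.4% of genes were counted.

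Counting only peaks within 1 kb of a TSS left 3 of 10 members, FOSB, JUNB and JUND, against 13.6% of genes. Each of the 5 genes had a single PHF13 peak by the rule. Their widths ran from 151 to 360 bp and their deposited fold enrichment from 2.64 to 4.97. This fold is the ratio of ChIP fragments to local background at the summit after a pseudocount of 1 is added to each, so it is lower than the plain ratio of the fragment numbers given here. The whole list had a median width of 188 bp and a median fold enrichment of 3.41.

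FOSB, a FOS protein induced by growth and stress signals, had the strongest of these peaks. It spanned 160 bp on chromosome 19 and ended 231 bp upstream of the closest FOSB start. The summit held 25 fragments over a background of 4.23, which is the floor of the library's background. Its fold enrichment was 4.97 and its −log10 q was 8.18, at percentile 85.4 of the list. The position also falls in an intron of ERCC1, a DNA repair gene. FOSB had no EZH2 peak within 100 kb, and the closest was 130946 bp away.

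FOSL1, which encodes FRA-1 and is known as a subunit of invasive carcinoma cells, had an intergenic peak at chr11:65670578-65670913. The peak was 336 bp wide and ended 2534 bp upstream of the closest start. Its summit held 34 fragments over 9.63, with a deposited fold of 3.29 (−log10 q 5.88). Of the 5 PHF13 peaks at members, this one had the tallest summit and also the highest background.

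BATF, a small partner of JUN proteins best known from lymphocytes, had the only one of these peaks far from a gene start. The peak lay in an intron at chr14:76002314-76002673, 13411 bp downstream of the closest TSS, and its GC content of 41.8% was the lowest of all 31 PHF13 peaks. Its summit held 21 fragments over the floor of 4.23. The fold enrichment was 4.21, and the −log10 q was 5.32.

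JUNB and JUND had the weakest peaks of the 5. JUNB, which often counters JUN in cell growth, had its peak inside its coding exon, 344 bp downstream of the start (chr19:12902644-12902938). The summit held 16 fragments over 5.43, and the deposited fold was 2.64 (−log10 q 1.67). JUND, the subunit present in most resting cells, had its peak 509 bp upstream of the start (chr19:18392941-18393091), in the transcript of the microRNA gene MIR3188. Its summit held 18 fragments over 5.36, and the deposited fold was 2.99 (−log10 q 2.38). Both peaks lay under the −log10 q of 3 that the methods state as the limit for PHF13, while the deposited list reaches down to 1.3. At a limit of 3, only 3 members (FOSB, FOSL1 and BATF) were counted, against 21.9% of protein-coding genes.

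**Figure D2:**
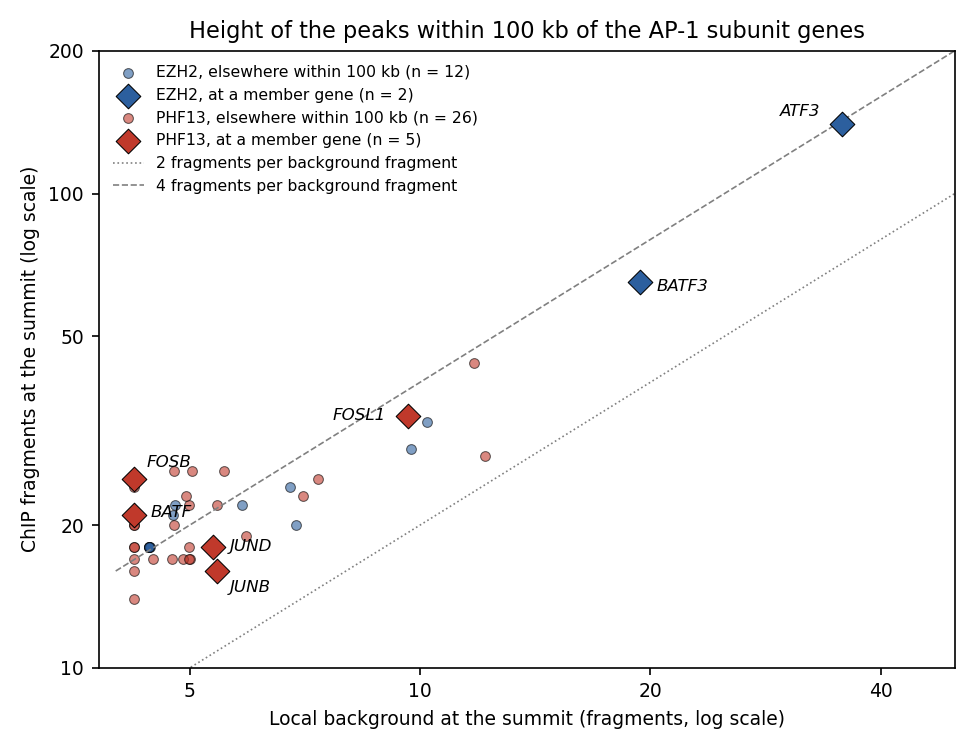
Fragments at the summit against the local background, both on log scales, for the 31 PHF13 and 14 EZH2 peaks within 100 kb of the subunit genes. Diamonds are peaks at a member gene and circles are other peaks; the lines mark 2 and 4 fragments per background fragment. The EZH2 peaks at ATF3 and BATF3 have the most fragments (140 and 65) and the highest backgrounds (35.6 and 19.4). The 5 PHF13 peaks at members hold 16 to 34 fragments.

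EZH2 was found by the rule at 2 of the 10 members (20%, Wilson interval 5.67 to 51.0%), against 30% of protein-coding genes, and the interval again includes the background. Both members had a peak wider than 1 kb, which was the case for 7.35% of protein-coding genes. In the same genes the peak lay no more than 1 kb from a TSS, against 16.6% of genes. They were ATF3, a stress-induced repressor and partner of JUN, and BATF3, a partner of JUN known from dendritic cells.

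At ATF3, the peak covered 2415 bp (chr1:212779041-212781455) inside the body of the longest transcripts and ended 557 bp before the closest TSS of the downstream start cluster. The summit held 140 fragments over a background of 35.6. The fold enrichment was 3.85, at percentile 82.9 of the EZH2 list, and the −log10 q was 35.3, at percentile 97.3. At BATF3, the peak covered 1822 bp (chr1:212872841-212874662) and lay over the TSS. Its summit held 65 fragments over 19.4, with a deposited fold of 3.24 (percentile 57.4) and a −log10 q of 12.4 (percentile 87.7). The median wide EZH2 peak of the list held 76 fragments over 18.4, with a −log10 q of 18.6, so ATF3 lay above and BATF3 below that median in fragments and in q.

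These genes are neighbours on chromosome 1, and their windows overlap. From the first base of ATF3 to the last base of BATF3 the interval measured 134507 bp and was overlapped by 3 EZH2 peaks and 0 PHF13 peaks. The BATF3 peak reached past its outer end, and its summit lay 845 bp beyond the BATF3 start. Between the facing edges of the wide peaks there were 91385 bp. The third EZH2 peak, between the genes, was 203 bp wide, with 29 fragments over 9.72, and lay in sequence where the median 24-base word occurred 12 times in the genome. All 6 PHF13 peaks of the neighbourhood lay outside the interval, 3 at 76640 to 95070 bp upstream of ATF3 and 3 at 21703 to 91725 bp upstream of BATF3. Their −log10 q ran from 2.27 to 3.67.

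**Figure D3:**
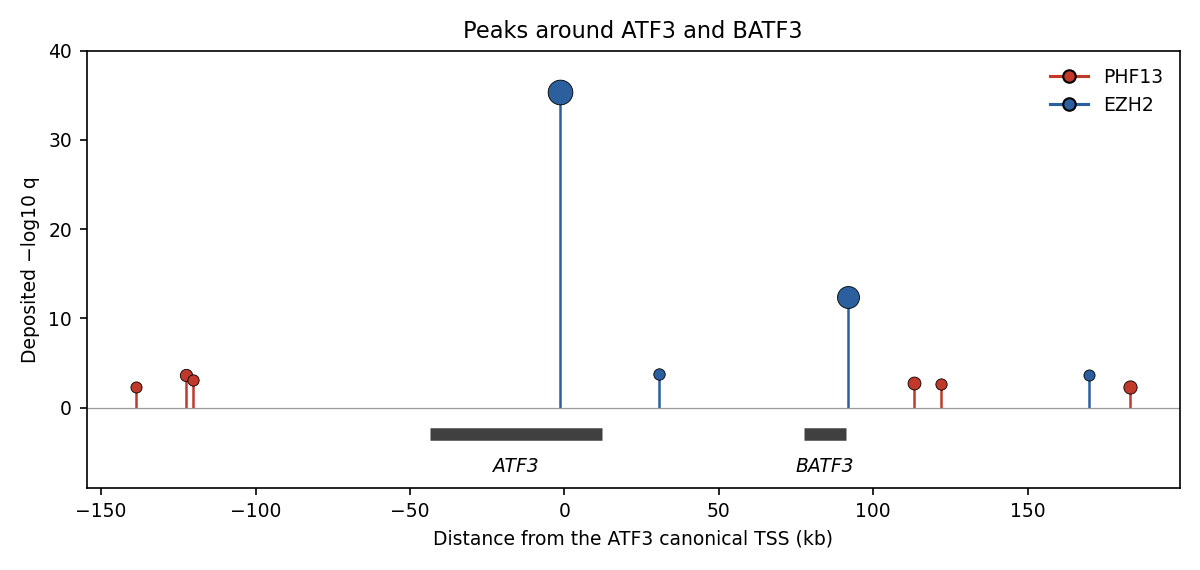
Peaks around ATF3 and BATF3 by distance from the ATF3 canonical TSS (kb) and by deposited −log10 q, with circle size growing with peak width and bars below for the gene bodies. The EZH2 peaks at ATF3 (−log10 q of 35.3) and BATF3 (12.4) rise above all others, and the 6 PHF13 peaks lie to the left of ATF3 and to the right of BATF3.

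Both lists together were found at 0 of 10 members, against 12.6% of protein-coding genes; the Wilson interval for 0 of 10 reaches 27.8%. Neither list was found at 3 of 10, against 51.4%. For the 3 genes with neither, distances to the closest peaks were as follows. FOS, the prototype of the family and the gene induced first by serum, had its closest PHF13 peak 19556 bp upstream and its closest EZH2 peak 48348 bp downstream. JUN, the partner required by FOS proteins for strong DNA binding, had its closest PHF13 peak 56396 bp downstream and its closest EZH2 peak 86334 bp upstream. FOSL2, which encodes FRA-2, had a PHF13 peak 45449 bp upstream, and its closest EZH2 peak was 813332 bp away, the longest such distance of the family.

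The closest PHF13 peak lay at a median of 16483.5 bp from a member TSS (range 231 to 76640 bp), against 35999 bp over protein-coding genes. For EZH2 the median was 47720.5 bp (0 to 813332 bp), against 34292.5 bp. The members thus lay closer to PHF13 and farther from EZH2 than the median gene, with ranges that span both medians.

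**Figure D4:**
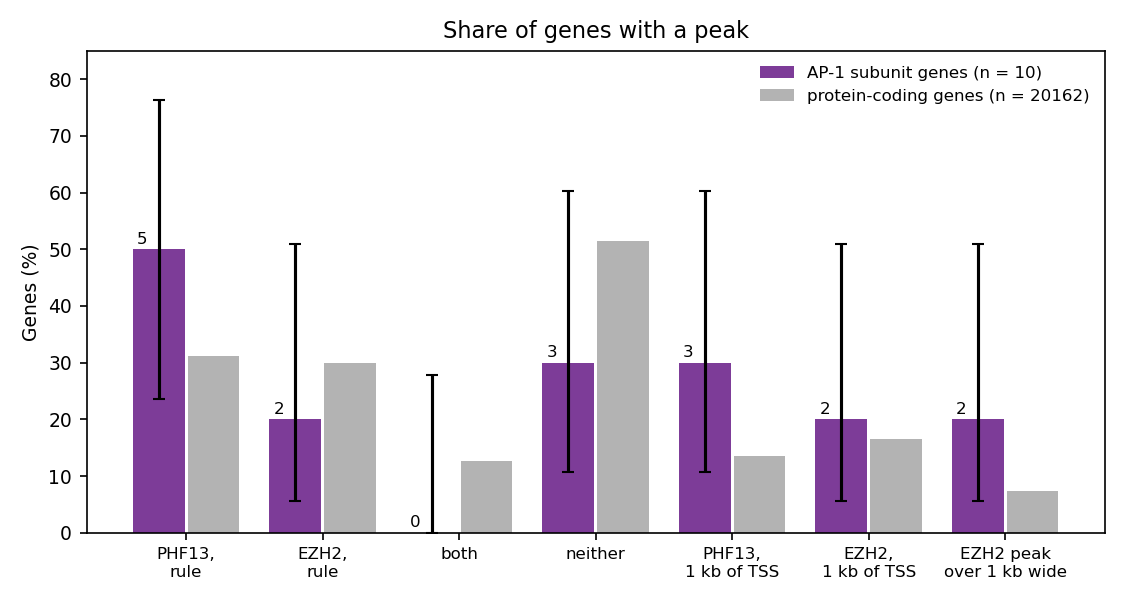
Share of genes (%) with a peak, for the 10 AP-1 subunit genes (purple, with the number of genes beside each bar and 95% Wilson intervals) and for 20162 protein-coding genes (grey). The interval of the members includes the grey bar in every pair, from PHF13 by the rule (5 of 10 against 31.2%) to EZH2 peaks over 1 kb wide (2 of 10 against 7.35%).

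Several PHF13 peaks lay just outside the rule. The closest was 5861 bp downstream of the JUND start (fold enrichment 3.0, −log10 q 2.26) and held an AP-1 site. Peaks followed at 7695 bp from a FOSB start, at 8424 bp from JUNB, and at 8958 bp from FOSL1, the last of these only 619 bp past the end of the gene. The closest EZH2 peak outside the rule lay 10453 bp from JUNB. Each of these peaks had its closest TSS at another gene. That TSS was 494 bp from the summit for JUND, 21 bp for FOSB and 526 bp for FOSL1. For JUNB it was 2279 bp from the PHF13 summit and 4 bp from the EZH2 summit.

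The second question was how the wider neighbourhoods looked. Within 100 kb there were 31 PHF13 peaks, 5 at the members and 26 elsewhere. This is a density of 15.4 peaks per Mb (exact Poisson interval 10.5 to 21.8), against 6.66 per Mb over the genome without gaps, a value below the interval. EZH2 had 14 peaks, 2 at the members and 12 elsewhere, or 6.95 per Mb (3.8 to 11.7), against 7.57, a value inside the interval. Counted per gene, a member window held a median of 3 PHF13 peaks (range 1 to 6), against 2 for protein-coding genes, and a median of 1.5 EZH2 peaks (0 to 4), against 2. Per Mb of window, these medians were 12.9 against 5.98 for PHF13 and 7.27 against 8.08 for EZH2. At least 1 PHF13 peak was found in the window of all 10 members and of 75.6% of protein-coding genes, and at least 1 EZH2 peak in 8 members and 77.1%.

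The PHF13 peaks were spread unevenly over the family. JUNB and JUND, both on chromosome 19, had 6 each, FOSB had 4, FOSL1, ATF3 and BATF3 had 3 each, FOSL2 and JUN had 2 each, and FOS and BATF had 1 each. The chromosomes differ too: chromosome 19 held 9.86 PHF13 peaks per Mb, whereas chromosome 14, where FOS and BATF lie, held 2.73. The part of this difference in the counts of single genes was not tested. For EZH2, BATF3 had 4 peaks, JUNB and ATF3 had 3 each, FOS and FOSL1 had 2 each, JUN, JUND and BATF had 1 each, and FOSB and FOSL2 had 0. The wide peaks of ATF3 and BATF3 and the peak between them are counted for both genes.

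None of the 31 PHF13 peaks shared a base with an EZH2 peak (Wilson interval 0 to 11%), against 11.7% of the whole PHF13 list. None of the 14 EZH2 peaks shared a base with PHF13 (0 to 21.5%), against 10.3% of that list. The gap from a PHF13 peak of the windows to the closest EZH2 peak was 4464 bp at the least and 71711 bp at the median. The smallest gap was in the window of JUNB, between a PHF13 peak 15066 bp and an EZH2 peak 10453 bp downstream of the start. PHF13 peaks in repeated sequence were also rare near the members. No PHF13 peak of the windows was multi-copy (0 to 11%), against 34.4% of the list. Of the 14 EZH2 peaks, 2 were (4.01 to 39.9%), against 32%. Shared peaks and multi-copy peaks were thus both scarce among the PHF13 peaks of these windows, and the part of the second in the first was not tested. For EZH2, both intervals include the share of the list.

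The 31 PHF13 peaks otherwise resembled the list in height. Their median summit held 20 fragments (14 to 44) over a background of 4.94, with a median −log10 q of 3.48, against 21, 5.13 and 3.57 in the whole list. Their GC content was higher, with a median of 59.6% against 46%, as was the CpG ratio, with 0.368 against 0.223. By the summit, 12 were intergenic, 11 intronic and 8 exonic, and 13 had their closest TSS of any gene within 1 kb. Of the 14 EZH2 peaks, 5 were intergenic, 6 intronic and 3 exonic, 4 had their closest TSS of any gene within 1 kb, and all but those of ATF3 and BATF3 were narrower than 1 kb. Annotation and distance to the closest TSS were not counted over the whole lists, so these counts have no background and describe the windows only.

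The third question was whether peaks near the subunit genes carry the family's own site. An AP-1 site was present at 7 of the 31 PHF13 summits (22.6%, Wilson interval 11.4 to 39.8%), against 11.2% of the whole PHF13 list and 15.4% of its single-copy peaks. The interval includes the share of the single-copy peaks and begins just above that of the whole list. All 7 were among the 26 peaks away from the members, and none of the 5 peaks at member genes had one. None of the 14 EZH2 summits had an AP-1 site (0 to 21.5%), against 2.31% of the EZH2 list. In windows of the same length 1000 bp to either side of the PHF13 summits of the whole list, 2.96% held the site.

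The peaks with AP-1 sites printed above lay in the windows of FOSB, FOSL1, JUN, JUND and BATF3. A window does not assign a peak to its member. Only the BATF3 peak had its closest TSS at the member itself, and the others lay closer to a TSS of another gene. The peak 15179 bp upstream of FOSL1 had the highest −log10 q of all 31 (8.93), with 44 fragments over 11.8, and its 200 bp held 2 sites. The closest TSS to it was that of C11orf68. The FOSB peak, 11880 bp upstream in an intron of ERCC1, had a −log10 q of 7.83, with 26 fragments over 4.77. These 2 peaks and the peaks at the gene starts of FOSB and FOSL1 lie on the same upstream side of their genes.

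JUN had PHF13 peaks only downstream, and both held an AP-1 site. The nearer one had 24 fragments over the floor of 4.23 (−log10 q 7.43), and the farther one, 2861 bp from a start of MYSM1, had 22 over 5.43 (4.19). JUND had sites in peaks on both sides of the gene. The peak 5861 bp downstream had 17 fragments over 5.0 (−log10 q 2.26), and the peak 92857 bp upstream had 26 over 5.03 (7.34). The latter summit was 161 bp from a TSS of GDF15, a secreted factor of the TGFβ family that stress induces, and 2 more of the strongest peaks of the JUND window lay near it, in GDF15 and in its neighbour PGPEP1 (6.47 and 5.48). The BATF3 peak with a site had 17 fragments over 4.48 (2.71).

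The other elements were rarer. A CRE was found at 1 of 31 PHF13 summits, against 0.215% of the list, and a CArG box at 1 of 31, against 0.898%. Both were in the FOSB peak that ended 231 bp upstream of a start. The CRE began 325 bp and the CArG box 274 bp upstream of the canonical TSS of FOSB. Both thus lay just beyond the 250 bp searched as promoter. The variant TGACATCA was found at 2 of 31 against 0.903%, and the SMAD element at 0 of 31 against 0.0945%. No EZH2 summit of the windows held any of these elements.

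The remaining strong peaks of the windows were near other genes. Among PHF13 peaks of the JUNB window, the strongest were close to the starts of MAST1 (−log10 q 4.67) and TNPO2 (3.92). The PHF13 peak nearest to FOS had 20 fragments over the floor of 4.23 (4.67). The only EZH2 peak of the BATF window lay 60 bp from a start of JDP2, which encodes a repressor that pairs with JUN. It had 22 fragments over 4.79, a deposited fold of 3.98 (−log10 q 5.55) and a GC content of 83.8%. FOS and BATF lie 239864 bp apart on chromosome 14, with JDP2 between them.

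Genes around the family in its pathways were counted by the same rule, against the same backgrounds of 31.2% for PHF13 and 30% for EZH2. The backgrounds for both lists and for neither list were 12.6% and 51.4%. Of 21 other AP-1 and bZIP partners, 8 had a PHF13 peak, 7 an EZH2 peak, 2 both and 8 neither. The strongest EZH2 peaks included those at MAFA and MAF, factors of cell differentiation, with −log10 q of 22 and 17.7, both over 1 kb wide and over a TSS. The strongest PHF13 peaks were at ATF7, NFE2L2 and MAFK, with 16.5, 11.9 and 9.92, and each of these 3 held an AP-1 site. The strongest PHF13 peak at each of the other partners held none. Among all PHF13 peaks with a −log10 q of at least 5, 19.6% held the site. ATF7 is a CRE-binding factor, and NFE2L2 and MAFK form the dimer of the antioxidant response. In this list 4 genes had an EZH2 peak over 1 kb wide, as ATF3 and BATF3 had, against 7.35% of protein-coding genes.

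Of 18 other immediate early genes, 7 had a PHF13 peak, 9 an EZH2 peak, 1 both and 3 neither. EZH2 peaks over 1 kb wide were found at 5 of them, against the same 7.35%, and the strongest of all were at EGR2, EGR4 and EGR3, zinc finger factors induced together with FOS (21.6, 17.9 and 15.4). The strongest PHF13 peaks were at DUSP6, IER3 and DUSP1 (12, 7.94 and 6.72), where DUSP6 and DUSP1 encode phosphatases that switch off MAP kinases. DUSP6 was the gene with both.

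Of 17 kinases and factors upstream of AP-1, 4 had a PHF13 peak, 2 an EZH2 peak, 0 both and 11 neither. PHF13 was found at MAP2K4 and MAPK8, which encode a JNK-activating kinase and JNK1, and at ELK3 (−log10 q 4.43, 4.21 and 2.58). EZH2 was found at MAPK10, the JNK gene of neurons, and at MAP3K1 (15.9 and 12.1). Of 16 genes known as AP-1 targets, 5 had a PHF13 peak, 2 an EZH2 peak, 1 both and 10 neither. The strongest PHF13 peaks included those at CD44, a cell surface receptor, and PLAU, the gene of urokinase (11.7 and 7.14), with an AP-1 site at CD44. EZH2 was found at MMP9 and CD44 (4.15 and 2.09), with 0 peaks over 1 kb wide.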

How the data were processed

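PHF13 and EZH2 ChIP-seq peaks of PANC-1 cells were analysed, with 1 library per antibody. The methods give the input as control, and whether the deposited background was drawn from it was not tested. Per the methods and the submitters' processing notes, the authors trimmed reads with Trim Galore 0.4.1, aligned them to hg19 with Bowtie2 2.4.1 under default settings, discarded duplicates (Picard) and used MACS2 2.2.7.1 for the peaks. No mapping quality filter is given in the sources used here. The deposited fold enrichment is a ratio of pileup to local background at the summit with a pseudocount of 1 added to both, and the deposited p-value and q-value are on the −log10 scale. The deposited score (the −log10 q times 10) and the summit offset, in bp, complete each peak. The methods give a q limit equal to a −log10 q of 3 for PHF13 and broad calling for EZH2, whereas both deposited lists are narrow and reach 1.3 and 1.31, so they were used whole, and limits of 3 and 5 were tried.

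Fragments at the summit and background were solved from the deposited fold enrichment and p-value, and 100% of peaks gave a solution within a relative error of 0.0001. The step was tested on simulated data. The median summit held 21 PHF13 and 25 EZH2 fragments, total read numbers were unknown, and PCR duplicates had been removed by the authors. Positions are 1-based on GRCh37, with gene models of GENCODE 44 mapped to it. A promoter was 250 bp before to 50 bp after the canonical TSS. Motifs (AP-1 site, CRE, TGACATCA, SMAD element, CArG box) were sought on both strands in 200 bp at each summit. Python 3.11.15 with numpy 2.4.6, pandas 2.3.3 and scipy 1.17.1 was used. Shares have 95% Wilson intervals, densities exact Poisson intervals, and no p-value was computed.

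All 10 members were named with their peaks. Of 4 pathway lists, at most 3 genes per antibody were named, by highest −log10 q, and in each 100 kb window the closest gene was named for the 3 peaks of highest −log10 q. MIR3188 was named after its position was seen. A few items that these rules would name are not reported here. The members, lists and motifs were chosen with earlier results of these data known. Alternatives concerned the distance rule, q limits, single-copy peaks, window size, overlap and the background genes.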

Additional observations from a re-analysis of the deposited data

How the results depend on the processing

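Of 52 alternatives over 9 results, 44 stayed within 1.5 times the count or within the interval of the share. Several of the 44 could not move. Changes of the background genes leave the member counts as they are, and stricter rules cannot raise a count of 0. A −log10 q of at least 5 or of at least 3 lowered the PHF13 members from 5 to 3 (FOSB, FOSL1 and BATF), while the background fell from 31.2% to 11% and 21.9%. The PHF13 peaks within 100 kb fell from 31 to 9 and 18 under the same limits. The EZH2 peaks fell from 14 to 4 at a limit of 5, and to 9 in windows of 50 kb. Densities over the genome were not computed under the q limits. Whether the higher PHF13 density of the windows holds there was thus not tested. The AP-1 share of PHF13 summits was 44.4% among the 9 peaks with a −log10 q of at least 5, against 19.6% of the list under that limit. It was 0% over the 5 peaks at member genes, and 12.9% in 100 bp windows against 7.38% of the list. Fewer peaks enter under each of these limits by construction. The members with EZH2 (2) and with both lists (0), the overlap (0 peaks), the AP-1 share of EZH2 summits (0%) and the median width of the EZH2 peaks at members (2118.5 bp) stayed as they were under every alternative run for them. For both lists and for the overlap, no alternative was looser than the main rule, so 0 was fixed in advance. The width alternatives kept the same 2 peaks. Only the 400 bp window could have raised the AP-1 share of EZH2 summits. Counting all annotated genes as background gave 18.8% for PHF13, below the members' interval of 23.7 to 76.3% that includes the 31.2% of protein-coding genes, and 19.5% for EZH2, inside the members' interval. No paired analysis was possible because each antibody has 1 library and no value comes from a test. Summits of about 20 fragments limit what these lists can show. No peak was called at FOS, JUN or FOSL2, but binding there is not shown to be absent. The lists hold called peaks only, so weak signal cannot be told from none.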
